A study of Mus musculus with 20 samples.

Results

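A set of 8 genes of the pluripotency network were followed across structures grown from mouse embryonic stem cells: Pou5f1, Nanog, Zfp42, Esrrb, Klf2, Klf4, Utf1 and Tfcp2l1. The members are the table rows with these gene names, a set chosen with earlier results of these data known. All 8 were listed among the 54446 gene IDs of each table, and all 8 were among the 14290 genes that passed the filter on low values. Bulk RNA was sequenced in 15 libraries, 3 from each of 5 groups. All groups came from F1G4 mouse embryonic stem cells that carry 2 reporters, T::H2B-mCherry for cells expressing Brachyury and Sox2::H2B-Venus for cells expressing Sox2. The stem cells were kept on feeder fibroblasts with the cytokine LIF, were freed of feeders, and were plated at 200 to 250 cells a well in NDiff227 medium. Every group received 3 µM CHIR99021, an inhibitor of GSK3 that activates WNT signalling, from 48 h. The 96h group held aggregates at 96 h, before further treatment, with 10 pooled structures a library. The groups at 120 h had 6 pooled structures a library: Gastruloid without Matrigel, TLSMG in Matrigel, an extract of basement membrane, TLSMGC in Matrigel with CHIR99021 added again, and TLSMGCL in Matrigel with CHIR99021 and LDN, a BMP receptor inhibitor. Structures were picked for an asymmetric pole, so the libraries describe picked structures, and the labels name 1 cell line. The labels call the replicates biological.

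Pluripotency is the capacity of early epiblast cells and of embryonic stem cells to form every tissue of the body. Pou5f1 (Oct4) works with Sox2 at shared enhancers and is needed in both the naive state of the early epiblast and the later, primed state. Nanog, Esrrb, Klf2, Klf4, Tfcp2l1 and Zfp42 (Rex1) belong to the naive state, in which LIF acts through Stat3 on Klf4 and Tfcp2l1, and GSK3 inhibition relieves the repressor Tcf7l1 from genes such as Esrrb, Klf2 and Tfcp2l1. Utf1 is a chromatin-associated protein of embryonic stem cells. As the embryo develops these genes are switched off at different times, Pou5f1 later than most of the naive genes. Germ cell precursors keep or regain part of the network.

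To show the sequence in front of the genes, the 200 bases before the first RefSeq start are printed for Pou5f1, Nanog, Zfp42 and Klf4, because their levels followed different courses over the groups (values below). The build is GRCm38.p6, each run reads 5′ to 3′ on the gene's strand, and capitals mark matches on either strand to the octamer core ATGCAAA, the SOX core CATTGT, the KLF box GGGNGTGG or the GC box GGGCGG.
Pou5f1, chr17:35505832-35506031, plus strand: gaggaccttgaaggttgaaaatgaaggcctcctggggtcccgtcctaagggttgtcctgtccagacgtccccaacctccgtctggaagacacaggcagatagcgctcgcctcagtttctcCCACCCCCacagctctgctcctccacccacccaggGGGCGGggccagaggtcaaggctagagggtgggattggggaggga
Nanog, chr6:122707289-122707488, plus strand: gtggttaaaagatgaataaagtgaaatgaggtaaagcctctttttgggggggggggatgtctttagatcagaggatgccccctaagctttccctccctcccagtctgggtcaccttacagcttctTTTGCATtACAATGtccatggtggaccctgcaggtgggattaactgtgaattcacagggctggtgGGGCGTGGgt
Zfp42, chr8:43307010-43307209, minus strand: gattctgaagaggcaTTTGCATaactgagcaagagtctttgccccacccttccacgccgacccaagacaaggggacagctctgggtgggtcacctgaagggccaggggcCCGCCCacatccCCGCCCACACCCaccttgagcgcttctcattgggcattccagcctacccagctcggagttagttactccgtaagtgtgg
Klf4, chr4:55532476-55532675, minus strand: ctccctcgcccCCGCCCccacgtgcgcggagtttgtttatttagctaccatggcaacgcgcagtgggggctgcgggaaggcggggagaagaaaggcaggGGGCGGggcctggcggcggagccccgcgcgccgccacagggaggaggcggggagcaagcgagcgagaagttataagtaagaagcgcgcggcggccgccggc
All 8 genes matched RefSeq promoters, with 11 windows in all, and 250 bases before each start were searched. In the first Nanog window an octamer core began 75 bases before the start and a SOX core 67 bases before it, with 1 base between them, and the second, overlapping Nanog window held the same pair 151 and 143 bases before its start. A SOX core also lay in the second Pou5f1 window, 158 bases before its start. Zfp42 held an octamer core 185 bases before its start. Of 32851 promoter windows of this length, 4.13% held an octamer core and 10.7% a SOX core. GC boxes lay in the windows of Pou5f1, Zfp42, Klf2, Klf4 and Utf1 (32.7% of all windows), and KLF boxes, which can overlap GC boxes, in those of Pou5f1, Nanog, Zfp42 and Tfcp2l1 (15.9%). The STAT palindrome TTCNNNGAA was found before Esrrb (7.02% of all windows). The ESRRB motif TCAAGGTCA (0.387%) and the TCF/LEF core ATCAAAG (3.21%) had no match in these 11 windows. Such matches describe letters and not binding.

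Levels are TPM (transcripts scaled to a fixed total per library), which correct for transcript length. Comparisons between genes are limited, because deposited coverage and TPM placed Esrrb differently among the factors (values below). In the 15 libraries between 13688 and 14494 genes had at least 1 TPM, a share of 6.13% to 10.8% of all TPM fell on the 10 most abundant genes, and mitochondrial transcripts took 0.358% to 1.52%. Coverage per unit of FPKM, a measure of relative depth, ran from 3.12 to 6.84. Counts per gene were not used here, so no counting intervals were computed. Somite markers (Meox1, Tcf15 and Uncx) summed to between 515 and 928 TPM in all libraries, and presomitic markers (T, Tbx6 and Msgn1) to 430 to 671 TPM at 96 h against 13.6 to 161 TPM at 120 h, so the libraries held differentiating tissue and the label mESC names the source of the cells. These are bulk libraries, in which fewer cells expressing a gene and less RNA per cell cannot be told apart.

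Pou5f1 (ENSMUSG00000024406.16, chr17:35506018-35510772, plus strand), the POU factor at the centre of the network, was the highest of the 8 in each group mean. It measured 85.0, 134 and 128 TPM in the 96h libraries and 46.1, 58.8 and 68.6 TPM in Gastruloid. In TLSMG it measured 28.2, 23.4 and 27.9 TPM, in TLSMGC 6.98, 7.56 and 15.8 TPM, and in TLSMGCL 15.0, 14.3 and 12.5 TPM. The ranges of 96h, Gastruloid and TLSMG followed each other downwards without overlap, TLSMG lay above both CHIR99021 groups, and those overlapped each other because of TLSMGC replicate 3. As group means, 116 ± 26.7 TPM at 96 h (SD, n = 3) compared with 57.9 ± 11.3 in Gastruloid, 26.5 ± 2.71 in TLSMG, 10.1 ± 4.93 in TLSMGC and 13.9 ± 1.28 in TLSMGCL. TLSMGC thus held 8.74% of the 96h mean and Gastruloid 50.01%.

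Nanog (ENSMUSG00000012396.12, chr6:122707489-122714633, plus strand), a homeodomain factor of the naive epiblast, was much lower than Pou5f1 at 96 h and followed another course. Its levels were 9.36, 18.6 and 15.7 TPM at 96 h and 11.8, 15.9 and 18.5 TPM in Gastruloid. They were 10.3, 8.63 and 10.3 TPM in TLSMG, 2.95, 3.01 and 5.14 TPM in TLSMGC, and 7.70, 5.25 and 6.19 TPM in TLSMGCL. The 96h and Gastruloid libraries covered the same range, TLSMG overlapped the lowest 96h library, and TLSMGCL and TLSMGC lay below it, in that order and without overlap. Of 40 other genes that share at least 200 bases at 90% identity or more with Nanog transcripts, 23 had a mean of at least 1 TPM. The pseudogenes Nanog-ps1 (at most 0.259 TPM) and Nanog-ps2 (listed at 0) were not among the expressed ones.

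Zfp42 (ENSMUSG00000051176.6, chr8:43295063-43306980, minus strand), the zinc finger protein Rex1 used as a marker of the naive state, measured 4.55, 8.77 and 6.05 TPM at 96 h and 7.68, 10.8 and 11.2 TPM in Gastruloid. It measured 5.35, 4.52 and 5.68 TPM in TLSMG, 1.04, 1.37 and 2.42 TPM in TLSMGC, and 4.00, 2.69 and 2.49 TPM in TLSMGCL. The highest group mean was that of Gastruloid, 9.90 ± 1.94 TPM, but its range met that of 96h, and at 120 h the 4 groups stood apart from each other. These values are uncertain in part, because Zfp42-ps1, named as a pseudogene copy, matches a Zfp42 transcript at 98.1% over 266 bases and was itself listed at 0.216 to 4.11 TPM, with means of 1.37 TPM at 96 h, 2.82 in Gastruloid, 1.44 in TLSMG, 0.301 in TLSMGC and 1.07 in TLSMGCL.

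The Krüppel-like factors Klf2 and Klf4, which overlap in function in naive stem cells, took different courses. Klf2 (ENSMUSG00000055148.7, chr8:72319033-72321656, plus strand) measured 8.12, 14.5 and 10.4 TPM at 96 h, 9.73, 11.1 and 13.99 TPM in Gastruloid, and 9.26, 6.73 and 9.31 TPM in TLSMG. It measured 2.53, 2.18 and 3.89 TPM in TLSMGC and 4.92, 4.25 and 4.06 TPM in TLSMGCL. The 96h libraries overlapped both Gastruloid and TLSMG, which did not overlap each other, and both CHIR99021 groups lay below these 3 groups. Klf4 (ENSMUSG00000003032.8, chr4:55527143-55532466, minus strand) measured 7.31, 6.32 and 4.69 TPM at 96 h, 2.33, 1.44 and 1.38 TPM in Gastruloid, and 1.31, 1.14 and 1.70 TPM in TLSMG. In TLSMGC it measured 1.13, 2.26 and 1.47 TPM and in TLSMGCL 1.62, 1.14 and 1.71 TPM. Every 96h library lay above every 120 h library, and the 120 h groups, with means of 1.38 to 1.72 TPM, overlapped each other. Endothelial cells also express Klf2 and Klf4. Summed over 9 endothelial markers, TLSMG libraries had 267 to 324 TPM, the 96h libraries 10.1 to 14.9, Gastruloid 34.6 to 45.8, TLSMGC 25.1 to 84.5 and TLSMGCL 12.8 to 21.2, and their part in the Klf2 and Klf4 levels was not tested.

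Esrrb (ENSMUSG00000021255.17, chr12:86361117-86521628, plus strand), an orphan nuclear receptor, measured 3.80, 7.00 and 6.71 TPM at 96 h and 6.61, 5.59 and 7.68 TPM in Gastruloid. It measured 3.67, 2.62 and 3.79 TPM in TLSMG, 1.87, 1.84 and 2.43 TPM in TLSMGC, and 3.00, 3.42 and 2.86 TPM in TLSMGCL. The TLSMG libraries stayed just below the lowest 96h library, and the TLSMGCL range lay inside that of TLSMG. Esrrb had the lowest coverage of the 8 factors, 0.107 to 1.13 over the libraries, against 1.49 to 6.68 for Tfcp2l1. Mean TPM over the 15 libraries was nevertheless higher for Esrrb than for Tfcp2l1, 4.19 against 1.58. Deposited coverage and TPM thus order these genes differently, and the cause was not tested. Whether the Esrrb levels rest on thin coverage cannot be told from these values, and their rank among the factors is uncertain. Tfcp2l1 (ENSMUSG00000026380.10, chr1:118627945-118685168, plus strand), a grainyhead-related factor downstream of LIF, was the lowest of the 8 on average and is the one nearest the filter. It measured 1.89, 3.25 and 2.38 TPM at 96 h, 1.63, 1.32 and 1.66 TPM in Gastruloid, 1.501, 1.15 and 1.57 TPM in TLSMG, 1.01, 0.748 and 1.19 TPM in TLSMGC, and 1.86, 1.26 and 1.35 TPM in TLSMGCL. The lowest 96h library lay just above the highest library at 120 h, and the 120 h groups overlapped, except that TLSMGC lay below Gastruloid and TLSMGCL.

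Utf1 (ENSMUSG00000047751.9, chr7:139943789-139945112, plus strand), a chromatin protein transcribed in stem cells under Oct4 and Sox2, measured 10.8, 23.1 and 16.1 TPM at 96 h and 19.0, 26.1 and 39.1 TPM in Gastruloid. It measured 12.4, 9.81 and 13.2 TPM in TLSMG, 3.30, 1.72 and 3.85 TPM in TLSMGC, and 6.02, 3.75 and 2.74 TPM in TLSMGCL. Gastruloid had the highest mean and the largest SD in TPM (28.0 ± 10.2, against 16.7 ± 6.12 at 96 h). The 96h range overlapped both Gastruloid and TLSMG, and the 2 CHIR99021 groups were low and overlapped each other. Gastruloid held 168% of the 96h mean and TLSMGC 17.8%.

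**Figure D1:**
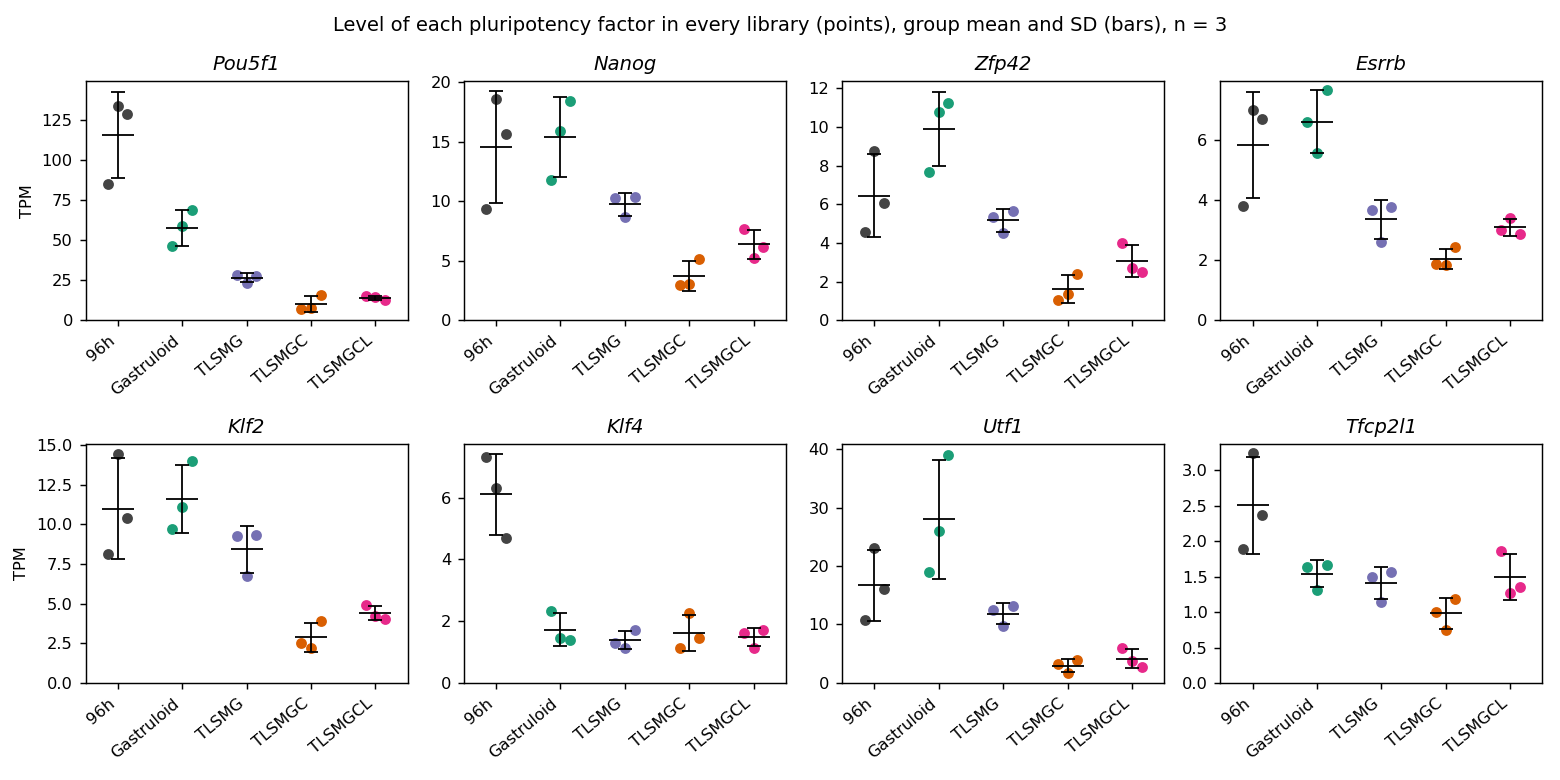
TPM (vertical axis, linear, from 0, one scale per gene) of each pluripotency factor in the 15 libraries; points are libraries, bars the mean and SD of 3. Pou5f1 and Klf4 are highest at 96 h, Zfp42 and Utf1 have their highest means in Gastruloid, and 7 of the 8 means are lowest in TLSMGC.

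**Figure D2:**
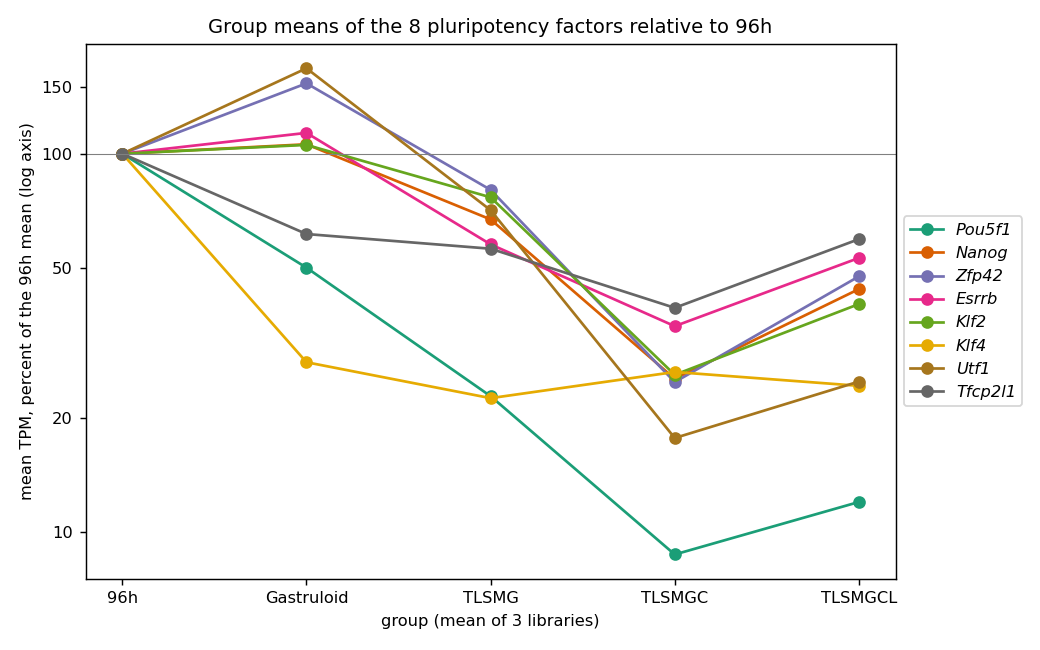
Mean TPM of each factor in each group as a percentage of its 96h mean (log axis); each point is the mean of 3 libraries and lines join 1 gene, not a time course. Pou5f1 reaches 8.74% in TLSMGC, while Klf4 is between 22.6% and 28.1% in all groups at 120 h.

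Without Matrigel, structures at 120 h had less Pou5f1 and Klf4 RNA than at 96 h, while the differences of Nanog, Klf2 and Esrrb were small against their error. Pou5f1 was 2.0-fold lower by mean TPM, with a log2 difference of -0.98 (SE 0.25) and an adjusted p of 0.00643 in limma's test. Klf4 was 3.55-fold lower, at -1.39 (SE 0.19, adjusted p 7.06e-05). Tfcp2l1 was 1.63-fold lower, at -0.45 (SE 0.15, adjusted p 0.0316). All such differences are of log2(TPM + 1), a scale on which low genes change less than in TPM, and p-values are two-sided and corrected for all 14290 genes tested (Benjamini-Hochberg). In all, 3 of the 8 passed the threshold of 0.05, each lower and each with groups that did not overlap, where 41.2% of all genes passed, 20.5% as lower, and 28.6% were lower without overlap. Nanog differed by 0.11 (95% interval -0.41 to 0.62), Klf2 by 0.09 (-0.35 to 0.53) and Esrrb by 0.19 (-0.21 to 0.58), so changes of either sign within these bounds are compatible with the data. Zfp42 (0.57, SE 0.23, adjusted p 0.0632) and Utf1 (0.72, SE 0.32, adjusted p 0.0846) were higher in Gastruloid and did not pass.

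Single libraries and other settings moved 3 of these calls. Tfcp2l1 was lost without 96h replicate 2 (adjusted p 0.149), 96h replicate 3 (0.0589), Gastruloid replicate 1 (0.0546) or Gastruloid replicate 2 (0.107), and with no filter (0.059) or only the 2 groups fitted (0.0612), within a range of 0.013 to 0.149 over 14 alternatives. Zfp42 passed as higher without 96h replicate 2 (0.0196) or Gastruloid replicate 1 (0.04), and Utf1 likewise (0.0377 and 0.0422). With a pseudocount of 5 or FPKM, Zfp42 passed at 0.0316 and 0.0251 and Utf1 at 0.0487 and 0.0407, within ranges of 0.0196 to 0.244 and 0.0377 to 0.304. With FPKM the split of all genes that passed was 3931 higher and 2371 lower, against 2969 and 2925 with TPM.

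Matrigel was tested at the same age by comparing TLSMG with Gastruloid. All 8 factors had negative differences, with a median of -0.70 beside 0.13 over all genes. Pou5f1 was 2.19-fold lower in TLSMG (-1.09, SE 0.25, adjusted p 0.00414), Utf1 2.37-fold (-1.13, SE 0.32, adjusted p 0.0124), Esrrb 1.97-fold (-0.81, SE 0.19, adjusted p 0.00425) and Zfp42 1.91-fold (-0.81, SE 0.23, adjusted p 0.0142). These 4 of 8 passed, all lower, where 39.3% of all genes passed and 7.87% as lower. The libraries of 6 factors did not overlap, the 4 and also Nanog (-0.59, adjusted p 0.0636) and Klf2 (-0.42, adjusted p 0.125), where 12.8% of all genes were lower without overlap. Klf4 differed by -0.18 (95% interval -0.60 to 0.24) and Tfcp2l1 by -0.08 (-0.41 to 0.25). The call on Zfp42 was lost without TLSMG replicate 2 (adjusted p 0.0526, range 0.00442 to 0.0526 over 15 alternatives) and that on Utf1 without Gastruloid replicate 3 (0.0545, range 0.00487 to 0.0545), and Nanog passed without Gastruloid replicate 1 (0.0407), with a pseudocount of 5 (0.0468) and with only the 2 groups fitted (0.024), within a range of 0.0214 to 0.193.

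The scale between libraries matters for TLSMG. The median difference of all genes was 0.13 in TLSMG versus Gastruloid, 0.14 in TLSMG versus 96h, -0.16 in TLSMGC versus TLSMG and -0.18 in TLSMGCL versus TLSMG, and median-of-ratios scaling brought these to -0.02, -0.02, -1e-04 and 0.01. Relative to the median of all genes, the TLSMG versus Gastruloid differences were -1.22 for Pou5f1, -1.26 for Utf1, -0.94 for Esrrb and for Zfp42, and -0.73 for Nanog. In that comparison 4497 genes passed as higher and 1125 as lower with TPM. The counts were 2753 and 2584 with median-of-ratios scaling and 2710 and 2705 with FPKM. Nanog and Klf2 passed as lower under both of these scalings, at adjusted p 0.0243 and 0.0444 with median-of-ratios scaling and 0.0214 and 0.0373 with FPKM, within ranges over 15 alternatives of 0.0214 to 0.193 and 0.0373 to 0.366.

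TLSMG was also set against 96h, a comparison in which age and Matrigel cannot be told apart and which shares the 96h libraries with the Gastruloid comparison. Pou5f1 was 4.37-fold lower (-2.06, SE 0.25, adjusted p 1.71e-05) and Klf4 4.42-fold (-1.57, SE 0.19, adjusted p 2.08e-05). Esrrb was 1.74-fold lower (-0.62, adjusted p 0.014) and Tfcp2l1 1.78-fold (-0.53, adjusted p 0.0125). These 4 of 8 passed, all lower and without overlap, where 46.0% of all genes passed, 12.5% as lower, and 17.0% were lower without overlap. Zfp42 differed by -0.24 (95% interval -0.73 to 0.26), Klf2 by -0.33 (-0.77 to 0.12), Utf1 by -0.41 (-1.09 to 0.27) and Nanog by -0.49 (-0.998 to 0.026). All genes that passed split into 4792 higher and 1785 lower with TPM, 3147 and 3342 with median-of-ratios scaling and 3950 and 2457 with FPKM. Leaving out 96h replicate 2 or TLSMG replicate 2 left 2 calls: Esrrb was lost at adjusted p 0.0677 and 0.0667 (and at 0.0615 without 96h replicate 3), Tfcp2l1 at 0.0667 and 0.0551, within ranges over 14 alternatives of 0.000811 to 0.0677 and 0.00384 to 0.0667. Esrrb was also lost in a fit of only the 2 groups (0.053). Nanog passed without 96h replicate 1 (0.0152) and with median-of-ratios scaling (0.0376), within a range of 0.0152 to 0.375.

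Added CHIR99021 was tested by comparing TLSMGC with TLSMG. Utf1 was 4.00-fold lower with it (-1.73, SE 0.32, adjusted p 0.000734), Zfp42 3.22-fold (-1.27, SE 0.23, adjusted p 0.000707) and Klf2 2.94-fold (-1.30, SE 0.21, adjusted p 0.000248). Pou5f1 was 2.62-fold lower (-1.39, SE 0.25, adjusted p 0.00064) and Nanog 2.64-fold (-1.22, SE 0.24, adjusted p 0.00117). With Esrrb (1.64-fold, -0.51, adjusted p 0.0404), 6 of 8 passed, all lower and all without overlap, where 40.9% of all genes passed, 30.5% as lower, and 38.8% were lower without overlap. Klf4 differed by 0.12 (95% interval -0.29 to 0.54) and Tfcp2l1 by -0.28 (-0.61 to 0.05). Relative to the median of all genes the 6 differences ran from -0.36 for Esrrb to -1.57 for Utf1. All genes that passed split into 1490 higher and 4352 lower with TPM, 2741 and 2572 with median-of-ratios scaling and 2195 and 3167 with FPKM.

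The Esrrb call was the weak one of the 6. It was lost with median-of-ratios scaling (-0.38, adjusted p 0.129), FPKM (0.117), a pseudocount of 5 (0.0806) and no filter (0.0891), and without TLSMG replicate 1 (0.109), TLSMG replicate 3 (0.128), TLSMGC replicate 1 (0.1) or TLSMGC replicate 2 (0.105), within a range of 0.0266 to 0.129 over 14 alternatives. The other 5 passed in every alternative run. Markers of WNT feedback moved the other way: 7 of 8 genes of that list were higher in TLSMGC and none lower, where 10.4% of all genes were higher, with a summed level of 590 to 663 TPM against 127 to 150 TPM in TLSMG and 562 to 574 TPM at 96 h.

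Both CHIR99021 groups stood below 96h for all 8 factors, and no library of either overlapped 96h. These comparisons share the 96h libraries with the earlier ones. The comparisons of TLSMG with 96h, Gastruloid, TLSMGC and TLSMGCL share the TLSMG libraries. In TLSMGC versus 96h, 40.7% of all genes passed, 20.1% as lower, and 25.5% were lower without overlap, and the 8 differences had a median of -1.57 beside 0.02 over all genes. They ran from -0.81 for Tfcp2l1 (2.55-fold, adjusted p 0.000907) to -3.45 for Pou5f1 (11.4-fold, adjusted p 1.58e-07), with Utf1 second at -2.14 (5.63-fold, adjusted p 0.000119). In TLSMGCL versus 96h, 39.5% of all genes passed, 22.1% as lower, and 28.4% were lower without overlap, with a median of -1.08 over the 8. Here too Pou5f1 differed most (8.31-fold, -2.94, adjusted p 7.15e-07) and Tfcp2l1 least (1.68-fold, -0.48, adjusted p 0.0234). The Tfcp2l1 call was lost without 96h replicate 2 (0.116), TLSMGCL replicate 2 (0.0765) or TLSMGCL replicate 3 (0.0725), and with only the 2 groups fitted (0.0725), within a range of 0.00999 to 0.116 over 14 alternatives.

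In the presence of LDN as well, TLSMGCL differed from TLSMG in 4 of 8 factors, all lower, where 44.9% of all genes passed and 35.6% as lower. Utf1 was 2.84-fold lower (-1.35, SE 0.32, adjusted p 0.0036), Klf2 1.91-fold (-0.79, SE 0.21, adjusted p 0.00676), Pou5f1 1.90-fold (-0.88, SE 0.25, adjusted p 0.011) and Zfp42 1.69-fold (-0.62, SE 0.23, adjusted p 0.0425). With Nanog (-0.55, adjusted p 0.0743), the libraries of 5 factors did not overlap, where 42.3% of all genes were lower without overlap. Relative to the median of all genes Pou5f1 differed by -0.70, and with median-of-ratios scaling it missed the threshold (adjusted p 0.0511, range 0.000991 to 0.0511 over 15 alternatives). Zfp42 passed in 4 of 15 alternatives (range 0.0227 to 0.143): it was lost without TLSMG replicate 1 (0.0915), TLSMG replicate 2 (0.0539), TLSMG replicate 3 (0.117), TLSMGCL replicate 2 (0.12) or TLSMGCL replicate 3 (0.127), with the replicate number as a block (0.0508), with a pseudocount of 0.1 (0.0502) or 5 (0.0507), with no filter (0.095), with median-of-ratios scaling (0.143) and with FPKM (0.0967). Nanog passed with only the 2 groups fitted (0.0227, range 0.0227 to 0.244). Esrrb differed by -0.08 (95% interval -0.48 to 0.32), with the sign turned at 0.08 under median-of-ratios scaling and 0.02 with FPKM, Klf4 by 0.06 (-0.35 to 0.48) and Tfcp2l1 by 0.05 (-0.29 to 0.38). All genes that passed split into 1330 higher and 5086 lower with TPM, 2837 and 2749 with median-of-ratios scaling and 2154 and 3552 with FPKM.

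The effect of LDN itself was tested as TLSMGCL versus TLSMGC, in which 169 genes, 1.18%, passed and none of the 8 factors did in limma's test, with 4 at an unadjusted p under 0.05. Of all 14290 genes, 1850 had an unadjusted p under 0.05 there. The 8 had a median difference of 0.47, beside -0.04 over all genes, and 7 of the 8 were positive. The libraries of 5 factors did not overlap, all higher in TLSMGCL, where 5.48% of all genes were higher without overlap. Nanog was 1.73 times as high by mean TPM (0.67, 95% interval 0.16 to 1.18, adjusted p 0.23) and Zfp42 1.90 times (0.65, 0.16 to 1.15, adjusted p 0.229). Klf2 (1.54 times, adjusted p 0.311), Esrrb (1.51 times, adjusted p 0.342) and Tfcp2l1 (1.52 times, adjusted p 0.394) were the other 3. No alternative brought any of the 8 past the threshold. The count over all genes rested on single libraries: it was 56 without TLSMGC replicate 2, 70 without TLSMGCL replicate 1 and 78 without TLSMGCL replicate 3. All genes that passed split into 58 higher and 111 lower with TPM, 104 and 101 with median-of-ratios scaling and 98 and 121 with FPKM.

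**Figure D3:**
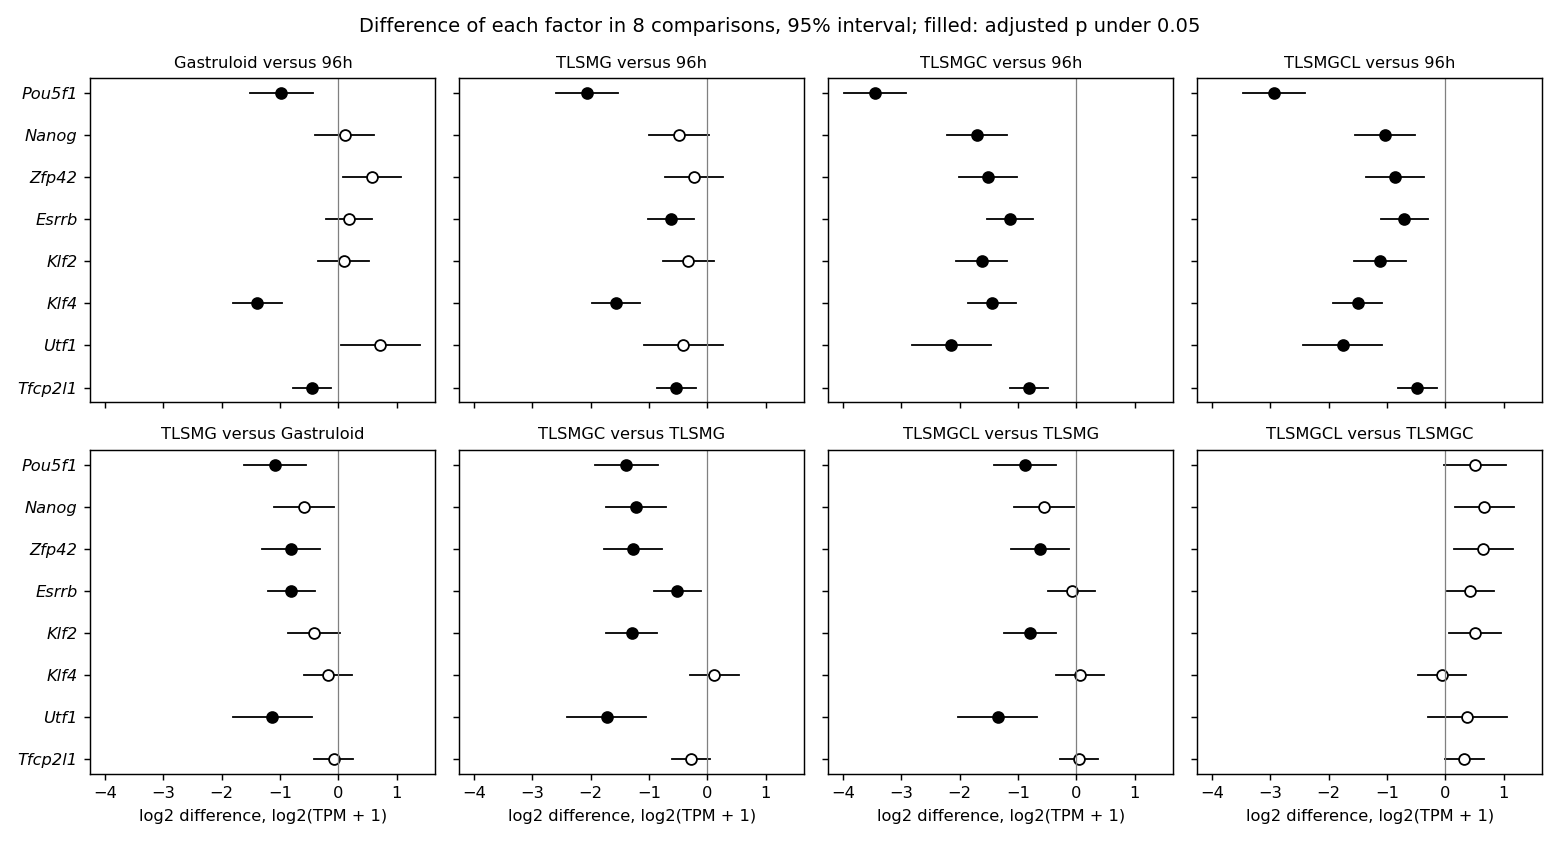
Log2 difference of each factor on the log2(TPM + 1) scale with its 95% interval, one panel per comparison of the first group with the second, 3 libraries each; filled points have an adjusted p under 0.05 in limma's test. All filled points lie below 0; 8 of 8 are filled in both CHIR99021 groups versus 96h and 0 of 8 in TLSMGCL versus TLSMGC.

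Across all 5 groups, limma's moderated F test passed for all 8 factors, with 73.5% of all genes passing. Among the 4 groups at 120 h it passed for 6 of 8, with 62.7% of all genes passing, from Utf1 and Pou5f1 (adjusted p 1.92e-05 and 1.18e-05) to Esrrb (0.000348). Klf4 (adjusted p 0.828) and Tfcp2l1 (0.164) did not pass there. They had the lowest mean TPM of the 8 over the 15 libraries, 2.46 and 1.58.

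The share of Pou5f1 in the RNA of the 8 factors was highest at 96 h. Summed over the 8, the 96h libraries had 131 to 215 TPM, Gastruloid 105 to 162, TLSMG 57.9 to 73.5, and the CHIR99021 groups 33.9 to 44.1 in TLSMGCL and 20.7 to 36.2 in TLSMGC. Pou5f1 made up 64.8% ± 2.65 of the sum at 96 h, 43.7% ± 1.29 in Gastruloid, 39.1% ± 1.16 in TLSMG, 37.9% ± 5.19 in TLSMGC and 36.8% ± 2.87 in TLSMGCL (SD, n = 3). The ratio of Pou5f1 to Nanog TPM, in which any scale factor of a library cancels, was 7.20 to 9.08 at 96 h and 3.69 to 3.91 in Gastruloid. In the Matrigel groups it was lower, with TLSMG at 2.71 to 2.73, TLSMGC at 2.37 to 3.07 and TLSMGCL at 1.94 to 2.73. The 96h and Gastruloid ranges each stood apart from all others, so the balance of Pou5f1 to Nanog differed between 96h and Gastruloid. The ratios of the 3 Matrigel groups overlapped. In limma's test both levels passed as lower in TLSMGC than in TLSMG. Only Pou5f1 of this pair passed in TLSMGCL versus TLSMG, and neither passed in TLSMGCL versus TLSMGC. Set against Utf1, Pou5f1 was 5.80 to 7.96 times as high at 96 h; Gastruloid had a ratio of 1.76 to 2.43, TLSMG of 2.11 to 2.38, TLSMGC of 2.12 to 4.39 and TLSMGCL of 2.48 to 4.56. These sums and ratios are descriptions, and 3 against 3 libraries could not reach an exact permutation p under 0.1.

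**Figure D4:**
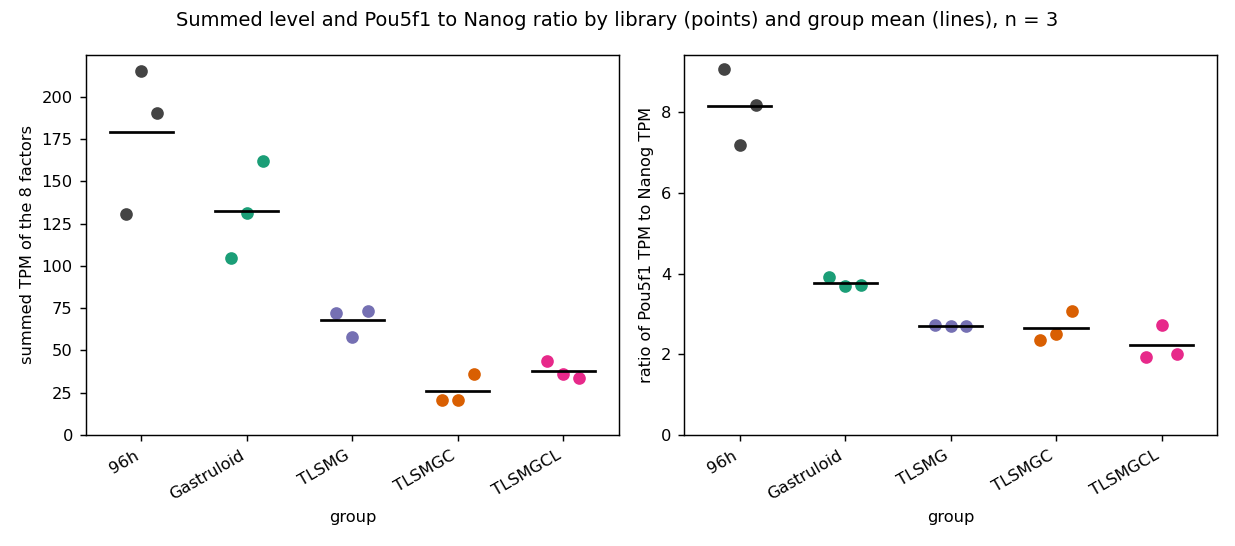
Left, summed TPM of the 8 factors per library; right, ratio of Pou5f1 TPM to Nanog TPM per library (linear axes from 0, lines are means of 3). The sum declines from 131 to 215 TPM at 96 h to 20.7 to 36.2 TPM in TLSMGC; the ratio is 7.20 to 9.08 at 96 h and under 4 in every other library.

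Within groups, the same libraries were high or low for most of the factors. In 96h replicate 1, 7 of 8 were the lowest of their group, as 38.6% of all genes were, and in replicate 2, 7 were the highest (29.2% of all genes). Gastruloid replicate 3 was highest for 7 (46.6%), TLSMG replicate 3 for 7 (47.1%), TLSMGC replicate 3 for 7 (32.4%) and TLSMGCL replicate 1 for 6 (41.0%), while TLSMG replicate 2 was lowest for all 8 (31.2%). Klf4 was the exception in 96h replicate 1, where it was highest, and in Gastruloid replicate 3, where it was lowest. Over the 15 libraries on log2(TPM + 1), Pearson's r among Nanog, Zfp42, Klf2, Utf1 and Esrrb was 0.895 to 0.981, and Pou5f1 correlated with these at 0.841 to 0.910. Klf4 correlated with them at 0.257 to 0.413, with Pou5f1 at 0.681 and with Tfcp2l1 at 0.703. The libraries fall into 5 groups, so these values describe the shared course over groups.

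By the same measure, among genes with a mean of at least 5 TPM, the closest to Pou5f1 were H2-Bl (r 0.987), a class I histocompatibility gene 569 kb away on chromosome 17, Slc9a3r1 (0.976) and Yif1a (0.973). H2-Bl went from 24.4 TPM at 96 h to 3.28 TPM in TLSMGC as group means. L1td1, an RNA-binding protein of stem cells, was closest to Klf2 (0.991) and to Utf1 (0.969), and followed Klf2 and Zfp42 for Nanog (0.968). Hspb1, a small heat shock protein, was closest to Zfp42 (0.974). Acd, a telomere-binding protein, was closest to Esrrb (0.943), followed by Ddt (0.937) and Hspb1 (0.935). The gene closest to Klf4 was Fn1, fibronectin (0.963), at 1201 TPM at 96 h and 137 to 165 TPM as means of the 120 h groups, followed by Gm38317 (0.953) and Hoxb3os (0.949). Tfcp2l1 was matched less closely, by Gnpda1 at 0.913, Ass1 at 0.909 and Hectd3 at 0.905.

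A list of 24 other pluripotency genes, of which 22 passed the filter, was set beside the 8 factors. In Gastruloid versus 96h, 6 were higher and 6 lower, where 20.8% of all genes were higher and 20.5% lower. Sox2, the partner of Pou5f1 and also a neural tube gene, was 96.9 TPM in Gastruloid against 25.7 TPM at 96 h (1.91, adjusted p 9.55e-07), and Dppa5a, an RNA-binding protein of stem cells, 199 against 74.8 TPM (1.43, adjusted p 0.00107). Fgf4, a growth factor driven by Oct4 and Sox2, was 3.30 against 26.1 TPM (-2.65, adjusted p 1.62e-07). Neural tube markers (Sox1, Pax6 and Irx3) summed to 116 to 201 TPM in Gastruloid and 63.1 to 109 in TLSMG, against 10.3 to 19.2 at 96 h, 7.81 to 12.4 in TLSMGC and 12.7 to 13.1 in TLSMGCL, moving with Sox2, and their part in its level was not tested.

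In TLSMG versus Gastruloid, 4 of the 22 were higher and 7 lower, where 31.5% of all genes were higher and 7.87% lower, and no alternative scaling (median-of-ratios or FPKM) called any higher. Leaving out any 1 of the 6 libraries left 0 to 2 higher, and 2 were lower without Gastruloid replicate 2 or 3 and 4 without TLSMG replicate 2 or 3. Dppa5a was lower there, 76.2 against 199 TPM (-1.35, adjusted p 0.00217). In TLSMGC versus 96h 18 of 22 were lower and none higher, where 20.1% of all genes were lower and 20.6% higher. In TLSMGCL versus 96h 17 were lower and none higher, or 1 higher without 96h replicate 3, where 22.1% of all genes were lower and 17.4% higher. Sall4, a zinc finger partner of Oct4, measured 49.1 TPM in TLSMGCL against 192 TPM at 96 h (-1.94, adjusted p 3.26e-09). In TLSMGC versus TLSMG 14 were lower and 1 higher, where 30.5% of all genes were lower and 10.4% higher, and in TLSMGCL versus TLSMG 15 and 1, where 35.6% were lower and 9.31% higher. Sox2 fell in both, to 26.9 and 31.9 TPM from 80.6 TPM (-1.54, adjusted p 1.02e-05 and -1.30, adjusted p 3.76e-05), and L1td1 in TLSMGC to 2.36 from 8.75 TPM (-1.54, adjusted p 0.000137). In TLSMGCL versus TLSMGC none of the 22 passed in limma's test, with 5 at an unadjusted p under 0.05. Of all 14290 genes, 1850 were under that value. The medians of the list were -0.05, -0.11, -1.10 and -0.91 in Gastruloid, TLSMG, TLSMGC and TLSMGCL versus 96h, where those of the 8 factors were 0.10, -0.51, -1.57 and -1.08.

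**Figure D5:**
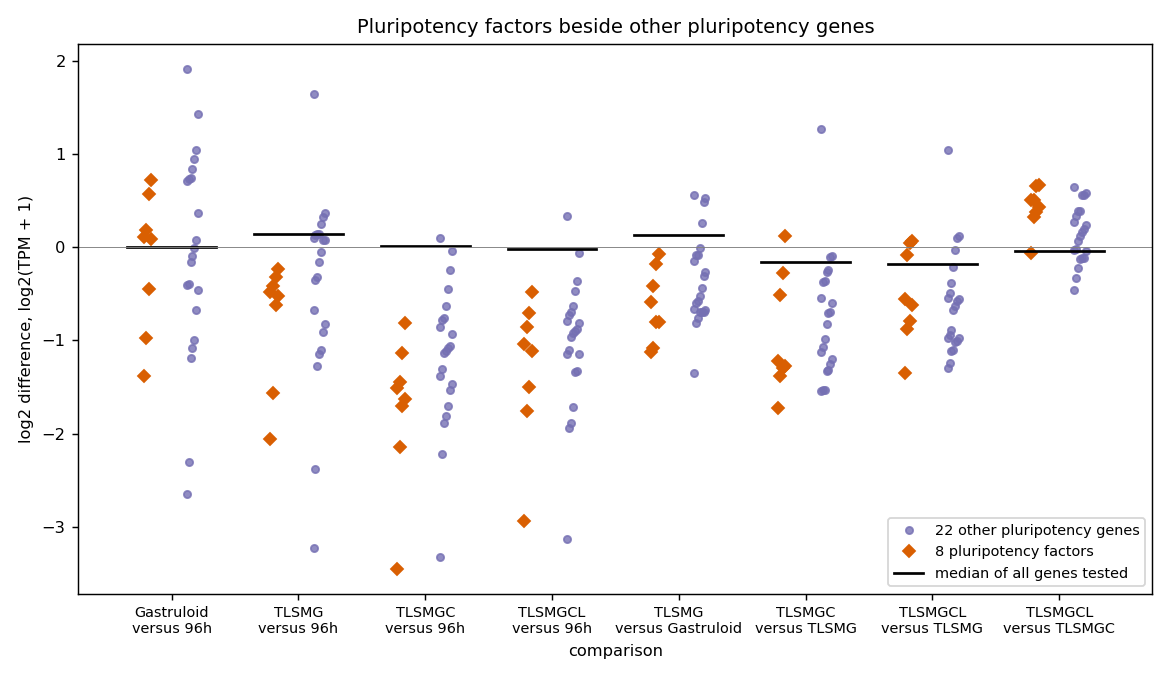
Log2 difference, log2(TPM + 1), of the 8 pluripotency factors (diamonds) and of 22 other pluripotency genes (circles) in each comparison, with the median of all 14290 genes tested (bars). In Gastruloid versus 96h the circles reach from -2.65 (Fgf4) to 1.91 (Sox2); in TLSMGC versus 96h all diamonds and 21 of 22 circles are below 0.

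The LIF pathway, which feeds Klf4 and Tfcp2l1, was also followed at the RNA level. Its 5 genes, the receptors Lifr and Il6st, the kinase Jak1, the factor Stat3 and its feedback target Socs3, were all higher in TLSMG than at 96 h, and all 5 were lower in TLSMGC and in TLSMGCL than in TLSMG. All genes leaned the same way in these comparisons: 33.5% were higher in TLSMG than at 96 h, and 30.5% and 35.6% were lower in TLSMGC and TLSMGCL than in TLSMG. In Gastruloid versus 96h, 4 of the 5 were also higher, where 20.8% of all genes were. The summed level of the 5 was highest in TLSMG, 120 to 130 TPM, and 80.2 to 85.0 in Gastruloid, against 55.4 to 59.9 at 96 h, 52.3 to 58.1 in TLSMGC and 47.6 to 60.3 in TLSMGCL. Socs3 was 8.82 TPM in TLSMG against 1.49 TPM at 96 h (1.98, adjusted p 2.87e-08) and Lifr 12.4 against 2.86 TPM (1.80, adjusted p 4.22e-07). Stat3 was 7.12 TPM in TLSMGC against 22.3 TPM in TLSMG (-1.52, adjusted p 1.28e-06). In the same groups Klf4 stood at its low 120 h level.

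Of 12 formative and primed epiblast genes, 9 passed the filter. Among these, 5 were lower and 1 higher in Gastruloid versus 96h, 6 and 1 in TLSMG, 8 and 0 in TLSMGC, and 5 and 0 in TLSMGCL. Of all genes, 20.5%, 12.5%, 20.1% and 22.1% were lower in these comparisons, and 20.8%, 33.5%, 20.6% and 17.4% higher. Lefty2 and Nodal, ligands of the Nodal pathway, led the lower ones, with Lefty2 at 2.73 TPM in Gastruloid against 31.6 TPM at 96 h (-3.09, adjusted p 4.56e-07) and Nodal at 3.76 against 14.6 TPM (-1.72, adjusted p 7.08e-05). Tcf7l1, the repressor relieved by GSK3 inhibition, was 26.8 TPM in TLSMGC against 73.6 TPM in TLSMG (-1.43, adjusted p 8.74e-07). Germ cell precursor markers, 10 genes of which Dppa3 and Prdm14 also stand in the pluripotency list, summed to 102 to 114 TPM in Gastruloid and 85.3 to 95.5 in TLSMG, against 59.8 to 81.8 at 96 h, 28.2 to 32.4 in TLSMGC and 30.5 to 32.5 in TLSMGCL. Ifitm3 alone held 61.7 TPM in Gastruloid, 44.9 in TLSMG and 36.6 at 96 h as means. Of 7 markers past the filter, 2 were higher in Gastruloid than at 96 h (20.8% of all genes) and none lower. In TLSMG versus 96h 3 were higher (33.5% of all genes) and none lower, with 4 of the 7 differences negative. The late germ cell genes Ddx4 and Dazl had group means of at most 0.674 and 0.652 TPM, and Prdm1 went from 6.85 TPM in TLSMG to 0.696 TPM in TLSMGC (-2.20, adjusted p 1.39e-05). Feeder fibroblast markers, 7 genes, summed to 8.90 to 12.6 TPM at 96 h and at most 48.4 TPM at 120 h. These markers did not move together. Of 4 past the filter, 3 were higher and 1 lower in Gastruloid versus 96h, where 20.8% of all genes were higher and 20.5% lower. Thy1 went from 7.0 to 0.70 TPM, while Col3a1 went from 0.503 to 16.5 TPM and Col1a2 from 1.59 to 14.2 TPM. The part of these cell types in the factor levels was not tested.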

How the data were processed

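Poly(A) RNA was sequenced as stranded 75 bp read pairs, per the labels' protocols, and the submitters' processing notes name cutadapt 2.4, STAR 2.7.3a, StringTie 2.0 and the build mm10. Per the file headers, the authors deposited TPM, FPKM and coverage per gene for each library. TPM was the main unit, FPKM an alternative, and the coverage deposited by the authors gave relative depth. Lines of 1 gene ID were summed, which affected 7 to 13 IDs a library. Genes with a mean of at least 1 TPM were tested on log2(TPM + 1) with limma 3.58.1 in R 4.3.3, with all 5 groups in 1 fit and a mean-variance trend, after a test of the script on simulated data. The Benjamini-Hochberg adjustment was made separately in each of 8 comparisons, with a threshold of 0.05.

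Other pseudocounts, filters, scalings, 2-group fits, a replicate block and leaving out each library were tried. The members and gene lists were chosen with earlier results of these data known. Named genes were the 8 members, from each list up to 2 called genes of largest difference in each direction of a comparison, and the 3 genes most like each member; some of these are not reported here. Sequence copies were sought with blastn 2.17.0 in GENCODE transcripts. The annotation release used by the authors is not given in the sources used here. Promoters are from RefSeq. The 5 single-cell samples were not analysed here.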

Additional observations from a re-analysis of the deposited data

Results flagged for a closer look

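For 4 of the 8 factors the change from 96 h differed between TLSMG and Gastruloid, tested as the direct difference between those groups with limma. The 96h values cancel, so this is the TLSMG versus Gastruloid test given above and no further result. In that comparison 39.3% of all genes passed, 7.87% as lower. The log2 difference between the changes was -1.09 for Pou5f1 (adjusted p 0.00414), -0.81 for Zfp42 (adjusted p 0.0142), -0.81 for Esrrb (adjusted p 0.00425) and -1.13 for Utf1 (adjusted p 0.0124). In each of the 4, all 3 TLSMG libraries were lower than all 3 Gastruloid libraries, where 12.8% of all genes were lower without overlap. The call on Zfp42 was lost without TLSMG replicate 2 (adjusted p 0.0526) and that on Utf1 without Gastruloid replicate 3 (0.0545).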

How the results depend on the processing

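Of 1274 alternative values of the 8 factors, 1203 kept their direction and their side of the threshold, 38 lost a call, 18 gained one and 15, all without a call, turned sign. The number of factors called in Gastruloid versus 96h was 5 with a pseudocount of 5 or FPKM and 1 at a mean of at least 5 TPM. That filter left 1 in TLSMG versus 96h and 5 in each of TLSMGC and TLSMGCL versus 96h, since only 5 factors were then tested. Median-of-ratios scaling left 2 in TLSMGCL versus TLSMG; the cause was not tested. Leaving out single libraries gave 2 to 5 factors in TLSMG versus 96h, and 56 to 198 genes in TLSMGCL versus TLSMGC, where a fit of only these groups called 42. Signs turned when single libraries were left out for Nanog (-0.16 to 0.30), Esrrb (-0.052 to 0.317) and Klf2 (-0.09 to 0.29) in Gastruloid versus 96h, and Tfcp2l1 in TLSMG versus Gastruloid (-0.14 to 0.002). They also turned for Klf4 in TLSMGC versus TLSMG (-0.047 to 0.259), Klf4 (-0.011 to 0.167) and Tfcp2l1 (-0.058 to 0.111) in TLSMGCL versus TLSMG, and Klf4 in TLSMGCL versus TLSMGC (-0.20 to 0.11). Esrrb in TLSMGCL versus TLSMG turned to 0.081 with median-of-ratios scaling and 0.015 with FPKM.

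Same-numbered libraries did not deviate together (r -0.18 to 0.10 over 30 pairs). With the replicate number as a block, 3 factors were called in TLSMGCL versus TLSMG, Zfp42 being lost at adjusted p 0.0508, and no other call on the 8 factors changed. Alternatives for the gene lists were added after seeing the data. Depth per gene in reads was not used here, and 3 libraries a group limit the precision of every value.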
